A study of Mus musculus with 4 samples.

Results

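Cells of the mast cell and basophil branch were examined in droplet scRNA-seq, a method in which the messenger RNA molecules of single cells are told apart by unique molecular identifiers (UMIs). A barcode, which marks the content of 1 droplet, was taken as a member if it held at least 1000 genes, at most 10% of UMIs from mitochondrial genes (mt-), at least 1 UMI of *Ms4a2* and at least 3 UMIs of *Cpa3*, while *Mcpt8* and *Prss34* together stayed below 10 per 10000 UMIs. Of the 16261 barcodes with at least 1000 genes and at most 10% mt- UMIs, 481 were members, or 2.96% (95% exact binomial interval 2.70% to 3.23%). The members were thus chosen by their levels of 4 genes in these libraries, and the median member held 5, 7, 5, and 7 UMIs of *Cpa3* and 4, 5, 4, and 6 UMIs of *Ms4a2* in the 4 libraries named next.

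4 libraries were compared, 1 each for BM (bone marrow) of control mice (CBM), BM of tumor-bearing mice (TBM), spleen of control mice (CS), and spleen of tumor-bearing mice (TS), all from female C57BL/6J mice 8 to 16 weeks old. Tumor-bearing mice carried PyMT-B6, a transplantable line of MMTV-PyMT mammary tumor origin, named for the oncogene PyMT and the mammary tumor virus promoter MMTV that drives it, the control mice carried no tumor, and the labels give no engineered allele in any group. Both organs were digested, depleted of lineage-positive cells, and sorted into CD45+/c-Kit+ populations with or without Sca-1 and into CD45- populations gated on CD31 and CD51. These fractions were pooled in equal parts, so the shares below refer to that pool and not to an organ, and the number of mice behind a library is not given in the sources used here. With 1 library per group there was no replicate and no test was possible, and every interval below covers counting error alone.

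Mast cells and basophils share the high-affinity IgE receptor, whose beta chain is encoded by *Ms4a2* and whose alpha chain is encoded by *Fcer1a*, and both store histamine made by the enzyme *Hdc*. Mast cells depend on the receptor tyrosine kinase *Kit* and mature in tissues, where they fill their granules with carboxypeptidase A3 (*Cpa3*), chymases, and tryptases. Mouse basophils mature in BM, express *Mcpt8*, *Prss34*, and the receptor *Cd200r3*, and secrete cytokines and chemokines on activation. Their shared progenitors arise from Gata2-expressing cells of BM and spleen that transcribe *Cpa3* and *Ms4a2* early.

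The promoter windows of the 2 genes that admitted the members and of 2 genes that set their kinds apart are shown, since GATA factors are the known regulators of this branch. Each runs from 250 bases before to 50 bases after the start in RefSeq on GRCm38.p6, and capitals mark the GATA motif, searched on both strands as AGATAA or TGATAA, which share the letters GATAA.
Cpa3, chr3:20242132-20242431, minus strand: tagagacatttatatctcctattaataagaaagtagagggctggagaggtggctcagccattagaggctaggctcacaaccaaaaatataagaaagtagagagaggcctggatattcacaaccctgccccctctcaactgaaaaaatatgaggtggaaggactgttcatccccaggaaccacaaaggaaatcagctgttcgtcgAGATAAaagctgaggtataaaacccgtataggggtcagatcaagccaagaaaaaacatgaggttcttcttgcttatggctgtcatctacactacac
Ms4a2, chr19:11623670-11623969, minus strand: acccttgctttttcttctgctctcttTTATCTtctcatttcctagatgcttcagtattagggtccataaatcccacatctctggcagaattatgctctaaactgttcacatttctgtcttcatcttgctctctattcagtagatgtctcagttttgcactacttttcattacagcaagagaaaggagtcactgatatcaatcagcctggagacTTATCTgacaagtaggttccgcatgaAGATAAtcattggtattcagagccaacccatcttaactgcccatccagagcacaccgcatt
Cd200r3, chr16:44943428-44943727, plus strand: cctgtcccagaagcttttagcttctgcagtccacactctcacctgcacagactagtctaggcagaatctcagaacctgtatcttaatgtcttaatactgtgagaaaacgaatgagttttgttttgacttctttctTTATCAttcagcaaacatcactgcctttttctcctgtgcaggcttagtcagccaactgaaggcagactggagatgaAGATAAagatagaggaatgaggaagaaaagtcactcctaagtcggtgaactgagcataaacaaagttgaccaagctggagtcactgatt
Ccl3, chr11:83649329-83649628, minus strand: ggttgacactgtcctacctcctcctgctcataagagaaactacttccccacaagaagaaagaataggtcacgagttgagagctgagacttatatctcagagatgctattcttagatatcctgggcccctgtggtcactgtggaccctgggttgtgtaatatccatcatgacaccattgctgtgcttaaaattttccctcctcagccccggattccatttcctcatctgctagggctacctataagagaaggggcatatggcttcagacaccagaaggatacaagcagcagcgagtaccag
The window of *Ms4a2* held 3 copies of the motif, that of *Cd200r3* held 2, that of *Cpa3* held 1, 46 bases before the start, and that of *Ccl3* held 0, while 18.6% of all 32851 windows held at least 1. The genes themselves lie on mm10 at chr3:20215620-20242181 on the minus strand (*Cpa3*), chr19:11615523-11623719 on the minus strand (*Ms4a2*), chr16:44943678-44981380 on the plus strand (*Cd200r3*), and chr11:83647844-83649355 on the minus strand (*Ccl3*). A match is a run of letters, and binding was not measured.

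CBM held 168 members, TBM 90, CS 169, and TS 54. Members made up 4.80% of the CBM barcodes that passed the gene and mt- limits (4.12% to 5.57%) and 2.07% in TBM (1.67% to 2.54%), and 5.22% in CS (4.48% to 6.05%) and 1.04% in TS (0.783% to 1.36%). The 2 control libraries held the higher shares, and the intervals of control and tumor-bearing libraries lay apart in both organs. The median member held 5233.5 UMIs in CBM and 15918.5 in TBM, and 5777 in CS and 19855.5 in TS, against library totals of 101811035 to 176094297 UMIs. Of the members, 2 CBM, 1 TBM, 3 CS, and 0 TS barcodes also passed 1000 genes in another library, and none was a member in both.

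**Figure D1:**
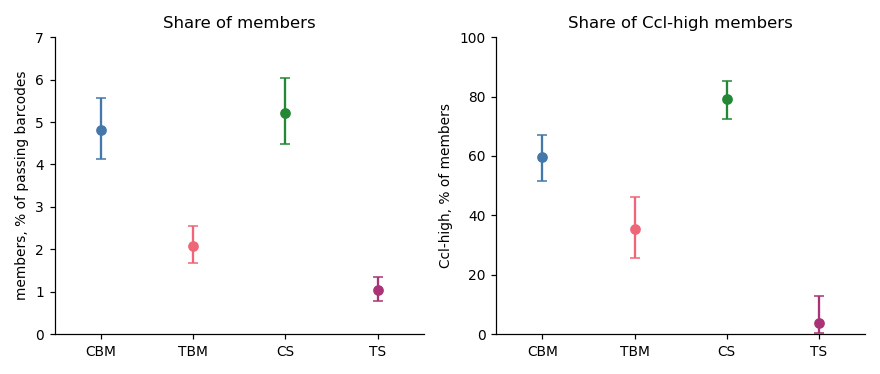
Members as a percent of the barcodes that passed the gene and mt- limits (left), and Ccl-high members as a percent of members (right), in CBM, TBM, CS, and TS. Points are shares and bars are exact 95% binomial intervals; CBM and CS lie above TBM and TS in both panels.

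The members were not 1 kind of cell, which goes against the name mast-lineage progenitor for the whole set. Of its markers, *Cpa3* and *Ms4a2* were required by the selection, whereas the remaining one, *Kit*, was found mainly in a part of the members. Members divided by the summed level of the chemokine genes *Ccl3* and *Ccl4*, which attract leukocytes, and the division was set at 10 per 10000 UMIs after the values had been seen. By it, 268 members (55.7%) were Ccl-high and 213 (44.3%) were Ccl-low, and 20 members (4.16%) lay near the division, from 5 to below 20 per 10000. Ccl-high members numbered 100 in CBM and 32 in TBM, and 134 in CS and 2 in TS, or 59.5% (51.7% to 67.0%), 35.6% (25.7% to 46.3%), 79.3% (72.4% to 85.1%), and 3.70% (0.452% to 12.7%) of the members. Ccl-low members numbered 68 in CBM and 58 in TBM, and 35 in CS and 52 in TS. The fewer members in the tumor-bearing libraries were thus mainly fewer Ccl-high members, at 2.86%, 0.737%, 4.14%, and 0.0386% of the passing barcodes. Ccl-low members made up 1.94% (1.51% to 2.46%), 1.34% (1.02% to 1.72%), 1.08% (0.754% to 1.5%), and 1.00% (0.749% to 1.31%) of them in the same order. Barcodes that failed the selection only by their level of *Mcpt8* and *Prss34* made up 3.29%, 6.22%, 0.958%, and 0.559%. In BM these were more frequent in TBM than in CBM. The lower share of members in TBM thus holds for the selection with its protease limit, and not for all barcodes with *Ms4a2* and *Cpa3*. Barcodes that failed only by having no *Ms4a2* UMI made up 1.72%, 3.59%, 2.47%, and 4.30%. These were more frequent in the tumor-bearing library of both organs, so the lower shares of members hold with the *Ms4a2* minimum as well.

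**Figure D2:**
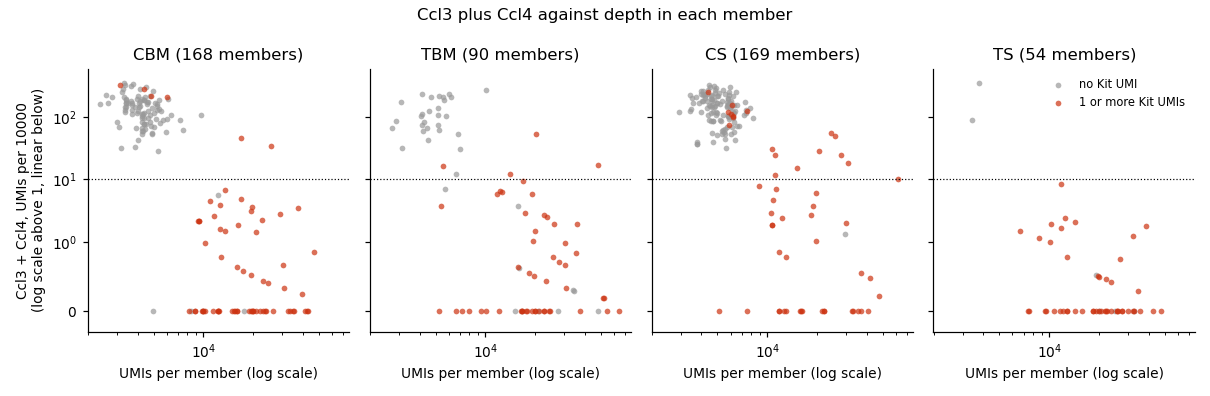
Summed UMIs of Ccl3 and Ccl4 per 10000 (vertical, log scale above 1 and linear below) against UMIs per member (horizontal, log scale), 1 panel per library and 1 point per member; red points hold at least 1 UMI of Kit and the dotted line is the division at 10 per 10000. Most points above the line lie left of 10000 UMIs and are gray, and nearly all points below it are red; TS has 2 points above the line.

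*Kit*, the receptor for stem cell factor, had a UMI in 63 of 68, 48 of 58, 34 of 35, and 48 of 52 Ccl-low members of CBM, TBM, CS, and TS, but in 6 of 100, 4 of 32, 18 of 134, and 0 of 2 Ccl-high members. *Cd200r3*, an activating receptor of basophils, had the reverse pattern, with a UMI in 97, 27, 124, and 2 of the Ccl-high members and in 6, 14, 2, and 6 of the Ccl-low ones. The kinds differed in depth, with medians of 4289.5, 5180.5, 5326, and 3589.5 UMIs in Ccl-high and 16524.5, 19824, 16336, and 19968.5 in Ccl-low members. After thinning each member to 2000 UMIs, which left out no member, *Kit* was found in 29.4%, 32.8%, 60.0%, and 25% of Ccl-low members of CBM, TBM, CS, and TS and in 2.00%, 3.12%, 5.22%, and 0% of Ccl-high ones. Barcodes rich in hemoglobin genes, which should lack *Kit*, gave 1.02%, 1.52%, 1.54%, and 0% (unthinned, 2.38% to 13.8% at medians of 11172 to 17574 UMIs). The Ccl-high shares lay above these in CBM, TBM, and CS, with binomial intervals that overlapped, and the hemoglobin-rich barcodes came from the same pool, sorted in part on c-Kit. *Cd200r3* at the same depth was in 88.0%, 71.9%, 71.6%, and 100% of Ccl-high members and in 0%, 1.72%, 0%, and 1.92% of Ccl-low members. *Cd34*, a surface protein of progenitors, had a UMI in 55, 52, 29, and 49 Ccl-low and in 13, 3, 8, and 0 Ccl-high members. Because the kinds were cut from a score, each is a range and not a type, and both keep the name of the score here. The CD45+ gates of the sort took cells with c-Kit protein, yet few Ccl-high members held a *Kit* UMI.

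The marker lists were read in each kind as medians over members. The list of 22 mast cell genes stood at medians of 19.0, 14.4, 37.4, and 12.3 per 10000 in Ccl-low members of CBM, TBM, CS, and TS, and at 45.7, 54.4, and 36.8 in Ccl-high members of CBM, TBM, and CS. It holds neither *Cpa3* nor *Ms4a2*. It does hold *Hdc*, *Gata2*, and *Fcer1a*, which basophils share and which stood higher in Ccl-high members, as given below. *Kit*, on the same list, went the other way, so the list median does not tell which kind is nearer to mast cells. The list of 18 basophil genes, which holds *Ccl3*, *Ccl4*, *Mcpt8*, and *Prss34*, stood at 37.8, 32.5, 74.7, and 26.6 in Ccl-low and at 288, 318, and 280.4 in Ccl-high members. *Ccl3* plus *Ccl4* alone stood at medians of 132, 85.5, and 137 in Ccl-high members of CBM, TBM, and CS. Part of the gap was thus set by the division itself, and the list was not read without these genes. 9 to 10 of the 22 mast genes, the tryptases *Tpsb2* and *Tpsab1* among them, had 0 UMIs in each kind of CBM and TBM, in Ccl-low members of TS, and in Ccl-high members of CS. In Ccl-low members of CS only 2 were at 0, and *Cma1*, *Mcpt4*, and *Tpsb2* there came mostly from a single member described below. 12 stem cell genes stood at medians of 6.62, 7.5, 9.34, and 9.02 in Ccl-low members and at 0, 0, and 0 in Ccl-high members. The 10 genes of stroma and endothelium summed to at most 47.4 CPM in any kind and library.

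Ccl-high members were compared with Ccl-low members within CBM, TBM, and CS, where both kinds had enough cells. Levels are UMIs per 1000000 UMIs of the members summed (CPM), and, of 3081 genes, 374 were at least 2-fold higher and 101 at least 2-fold lower in Ccl-high members in all 3 libraries, or 15.4% of the genes. The same cells set the kinds and gave these values, so they describe the kinds and no test was made. Deep Ccl-high members with a *Kit* UMI, given below, weigh in the Ccl-high sums. Chemokine and cytokine genes stood on the Ccl-high side. *Ccl6* was at 4956 in CBM and 6742 in TBM, and 4725 in CS in Ccl-high members and at 4.57, 109.6, and 2.79 in Ccl-low members of the same libraries. *Il6* was at 1067 in CBM and 455 in TBM, and 599 in CS in Ccl-high and at 32.0, 11.4, and 48.8 in Ccl-low members. *Csf1*, which encodes the growth factor of macrophages, was at 649 in CBM and 495 in TBM, and 708 in CS against 54.8, 57.8, and 66.9, so that each Ccl-high library lay above all Ccl-low ones.

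Receptor and enzyme genes divided in the same way. *Fcer1a* was at 681 in CBM and 626 in TBM, and 462 in CS in Ccl-high members against 109, 149.9, and 153 in Ccl-low members. *Hdc*, the histamine-forming enzyme, was at 1500.0 in CBM and 1392 in TBM, and 802 in CS in Ccl-high members against 403, 360.0, and 276 in Ccl-low members. *Cyp11a1*, a steroid-forming enzyme found in basophils, was at 1124 in CBM and 1204 in TBM, and 792 in CS in Ccl-high members against 39.6, 92.1, and 119 in Ccl-low members. *C3ar1*, *Il7r*, *Cyp4f18*, *Lilrb4a*, *Skap1*, *Lilr4b*, and *Sytl3* completed the 8 highest genes, and of these *Lilrb4a* and *Lilr4b* are near-identical copies whose reads may be split. On the Ccl-low side, the 8 lowest ratios were those of *4930519L02Rik*, *Rgcc*, *Muc13*, *Tmem176b*, *Sox4*, *Igfbp4*, *Spns3*, and *Wdr12*. *Muc13*, a mucin of early progenitors, was at 17 in CBM and 30.6 in TBM, and 25.9 in CS in Ccl-high members against 114, 151, and 158 in Ccl-low members. *Sox4*, a transcription factor of progenitors, was at 48.8 in CBM and 30.6 in TBM, and 112 in CS in Ccl-high members against 427, 244, and 475 in Ccl-low members. *Gata2*, the factor that mast cells and basophils share, was at 1273 in CBM and 1173 in TBM, and 959 in CS in Ccl-high members against 633, 335, and 588 in Ccl-low members, higher in Ccl-high members of all 3 libraries. These levels are shares of the summed UMIs. Ccl-low members held more UMIs each at the median, so UMIs of a gene per cell need not keep the same order.

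**Figure D3:**
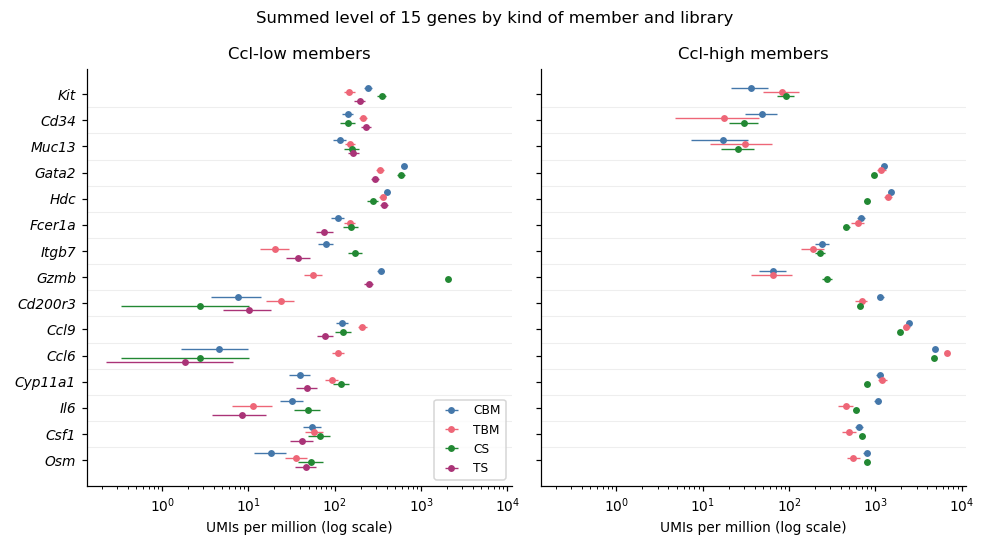
Summed levels of 15 genes in CPM (log scale) in Ccl-low members (left, 4 libraries) and Ccl-high members (right, CBM, TBM, and CS), with exact 95% Poisson intervals. Kit, Cd34, and Muc13 lie higher in Ccl-low members, and Cd200r3, Ccl6, Cyp11a1, and Il6 lie higher in Ccl-high members in every library drawn.

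The most like barcodes outside the selection were those that met it but for 10 or more *Mcpt8* and *Prss34* UMIs per 10000 (protease-rich, 115 in CBM and 270 in TBM, and 31 in CS and 29 in TS) and those with at least 3 *Cpa3* UMIs, few proteases, and no *Ms4a2* UMI (Ms4a2-negative, 60, 156, 80, and 223). Of 3029 genes, 1 was at least 2-fold higher and 6 lower in members than in protease-rich barcodes in all 4 libraries (0.231%). The gene higher in members was *Ctla2a*, a protease inhibitor, at 203 in CBM and 392 in TBM, and 64.2 in CS and 528 in TS in members and 84.8, 72.5, 13.5, and 45.5 in protease-rich barcodes. *Clec12a*, an inhibitory receptor of granulocytes and basophils, was lower, at 67.8, 79.1, 29.9, and 15.7 against 253, 331, 113, and 308. Ccl-high members differed from protease-rich barcodes by at least 2-fold in 46 higher and 24 lower genes of 3025 in 3 libraries (2.31%), and Ccl-low members in 7 higher and 94 lower genes of 2990 in 4 libraries (3.38%). *Mef2c*, a transcription factor, led the genes higher in Ccl-low members with 105, 120.3, 61.3, and 86.3 against 29.1, 25, 11.3, and 7.0, and *Cd200r3* led those lower with 7.61, 23.6, 2.79, and 10.2 against 1068, 760.1, 209.9, and 413. Against Ms4a2-negative barcodes, Ccl-low members were at least 2-fold higher in 16 and lower in 0 of 2972 genes (0.538%), while all members were higher in 44 and lower in 0 of 3038 (1.45%). The genes highest in Ccl-low members were *Fcer1a*, with 109, 149.9, 153, and 76.1 against 23.2, 8.79, 4.44, and 0.197, and *Csrp3*, a LIM-domain protein, with 496, 287, 293, and 106 against 119.9, 25.3, 11.8, and 3.93. They were followed by *Lmo4*, *Fam129a*, *Il1rl1*, *Slc45a3*, *Gzmb*, and *Auts2*. These barcodes were set apart by genes of the selection, so the counts are a description.

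The limits of the selection passed through a continuous range. Members with exactly 3 *Cpa3* UMIs numbered 46 in CBM and 17 in TBM, and 41 in CS and 10 in TS, and 54, 31, 47, and 18 barcodes failed by having 2. Members with the proteases from 8 to below 10 per 10000 numbered 6, 4, 4, and 1, against 4, 1, 5, and 1 barcodes from 10 to 12 per 10000. No UMI of either protease was found in 95, 30, 96, and 29 members.

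Over all members, 6182 genes had a mean of at least 20 CPM and were compared between libraries, leaving out the 4 selecting genes and mt- genes. A 2-fold difference was passed by 255 genes between TBM and CBM (4.12%; 86 higher, 1.39%, and 169 lower, 2.73%, in TBM). It was passed by 1483 genes between TS and CS (24%; 728 higher, 11.8%, and 755 lower, 12.2%, in TS). It was passed by 249 genes between CS and CBM (4.03%; 113 higher, 1.83%, and 136 lower, 2.2%, in CS) and by 307 between TS and TBM (4.97%; 65 higher, 1.05%, and 242 lower, 3.91%, in TS). Within Ccl-low members alone, of 6111 genes, 659 passed between TS and CS and 184 between TS and TBM, fewer than over all members. The counts for TBM over CBM (241) and CS over CBM (266) stayed near those above. The part of the make-up of the members in these counts was not tested. In TS over CS, where the Ccl-high share was 3.70% against 79.3%, 14 of 16 counted basophil genes were lower, with a median log2 ratio of -3.20, and 8 of 11 mast genes were lower, with a median of -1.93. *Cma1*, *Mcpt4*, and *Tpsb2*, among these 8, were counted only through their level in CS. In the same comparison 13 of 20 S-phase genes and 15 of 19 genes of G2 and mitosis were higher, with medians of 1.23 and 1.22, and 13 of 22 immediate early and stress genes were lower. The median over all 6182 genes was between -0.05 and 0.09 in the 4 ratios. The gene ratios are therefore given within each kind.

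Within Ccl-low members, 6111 genes were compared. 241 genes passed 2-fold between TBM and CBM (3.94%; 91 higher, 1.49%, and 150 lower, 2.45%, in TBM), and 659 between TS and CS (10.8%; 322 higher, 5.27%, and 337 lower, 5.51%, in TS). These ratios share no library. The same 29 genes were higher in both, or 31.9% of the 91 and 9.01% of the 322, and 70 were lower in both, or 46.7% of the 150 and 20.8% of the 337. The opposite direction was taken by 6 of the 91 and 2 of the 150. The genes lower in both tumor-bearing libraries included *Gzmb*, *Scin*, *Gpr183*, *Cx3cr1*, *Itgb7*, *Cd7*, *Slc45a3*, *Klf1*, and *Gfi1b*, and those higher in both included *Rrm2*, *Pclaf*, *Tk1*, *Asf1b*, *Serpina3g*, *Mthfd2*, and *Ms4a3*; *Slc45a3*, *Tk1*, *Asf1b*, and *Mthfd2* were named after their values had been seen.

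Several granule and surface genes were lower in the tumor-bearing libraries. *Gzmb*, the gene of the cytotoxic protease granzyme B (chr14:56258838-56262260, minus strand), was at 341 in CBM and 56.3 in TBM, and 2034 in CS and 248 in TS, a log2 ratio of -2.60 (-2.97 to -2.24) in BM (TBM over CBM) and -3.04 (-3.23 to -2.85) in spleen (TS over CS). It was high in CS and intermediate in CBM and TS, and it came from 17, 10, 24, and 24 of the 68, 58, 35, and 52 members. At 2000 UMIs per member, *Gzmb* was found in 19.1% in CBM and 8.62% in TBM, and 57.1% in CS and 17.3% in TS, and in at most 2.38% of hemoglobin-rich barcodes. *Itgb7*, the integrin chain by which mast cell progenitors home to the gut, was at 78.4 in CBM and 20.5 in TBM, and 171 in CS and 38.0 in TS, a log2 ratio of -1.93 (-2.60 to -1.31) in BM (TBM over CBM) and -2.17 (-2.72 to -1.65) in spleen (TS over CS). Both control libraries lay above both tumor-bearing libraries. *Scin*, the actin-severing protein scinderin of secretory cells, was at 225 in CBM and 14.5 in TBM, and 719 in CS and 117 in TS, a log2 ratio of -3.96 (-4.71 to -3.29) in BM (TBM over CBM) and -2.62 (-2.91 to -2.34) in spleen (TS over CS). It was detected in 32, 7, 27, and 19 members. Members with 50 or more UMIs per 10000 of genes of other lineages (erythroid, megakaryocyte, neutrophil, monocyte, lymphoid, stromal) were uneven between the libraries, and leaving them out kept 55 of 68 in CBM and 27 of 58 in TBM, and 30 of 35 in CS and 39 of 52 in TS. The BM ratios were then -1.72 for *Gzmb*, -1.0 for *Itgb7*, and -2.75 for *Scin*. *Kit* was at 244 in CBM and 148 in TBM, and 351 in CS and 194 in TS, a log2 ratio of -0.72 (-0.99 to -0.46) in BM and -0.86 (-1.13 to -0.59) in spleen, and did not pass 2-fold in either. *Hdc* was at 403 in CBM and 360.0 in TBM, and 276 in CS and 373 in TS, and *Fcer1a* at 109 in CBM and 149.9 in TBM, and 153 in CS and 76.1 in TS, so these genes kept no common order of the libraries. Of 11 counted mast genes, 0 were higher and 3 lower in TBM over CBM (median -0.72), and 0 were higher and 6 lower in TS over CS (median -1.01), where the medians of all genes were -0.02 and 0.06. Over all 6111 genes, 2.45% were lower in TBM over CBM and 5.51% in TS over CS. The 3 lower in BM were *Gzmb*, *Itgb7*, and *Cma1*, and the 6 lower in spleen were these with *Fcer1a*, *Tpsb2*, and *Mcpt4*. In CS the chymases and *Tpsb2* came mostly from a single member described below. *Cma1*, *Tpsb2*, and *Mcpt4* reached the mean of 20 CPM only through CS, so their lower level in TS over CS was set by that filter. Their part in the count and median of TS over CS is therefore no finding. In CBM, 1 member held 32 of the 39 UMIs of these genes.

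Transcription factor genes of the branch were read next. *Lmo4*, a LIM-domain factor on the basophil list, was at 1515 in CBM and 684 in TBM, and 1479 in CS and 678 in TS, with log2 ratios of -1.15 (-1.26 to -1.03) in BM and -1.12 (-1.26 to -0.99) in spleen. *Gata2* was at 633 in CBM and 335 in TBM, and 588 in CS and 296 in TS, with ratios of -0.92 (-1.09 to -0.75) and -0.99 (-1.21 to -0.78). *Runx1*, which the blood lineages need from their origin, was at 495 in CBM and 285 in TBM, and 580.0 in CS and 315 in TS, with ratios of -0.79 (-0.98 to -0.61) and -0.88 (-1.09 to -0.67). *Lmo4* passed 2-fold in both organs, and *Gata2* and *Runx1* did not pass in either, though both control libraries lay above both tumor-bearing ones. *Gfi1b*, a repressor of the erythroid, megakaryocyte, and basophil branches, was at 45.7 in CBM and 18.3 in TBM, and 44.6 in CS and 14.8 in TS, with ratios of -1.32 (-2.07 to -0.62) and -1.59 (-2.55 to -0.68). *Gata1* and its partner *Zfpm1* had ratios of -1.21 (-1.79 to -0.65) and -1.45 (-1.97 to -0.96) in BM, against 0.09 (-0.60 to 0.80) and 0.75 (0.18 to 1.35) in spleen. *Id2*, an inhibitor of helix-loop-helix factors, was at 67.0 in CBM and 34.2 in TBM, and 287 in CS and 12.1 in TS, with a ratio of -4.57 (-5.51 to -3.77) in spleen, and it came from 11, 6, 17, and 6 members. Of 25 counted factors, 1 was higher and 5 lower in TBM over CBM, and 0 were higher and 5 lower in TS over CS. *Irf8*, the 1 higher in BM and among the 5 lower in spleen, was counted only through its level in CS. Of all 6111 genes, 1.49% were higher and 2.45% lower in TBM over CBM, and 5.27% higher and 5.51% lower in TS over CS. Leaving out members rich in other lineages kept 27 of 58 in TBM against 55 of 68 in CBM. The ratios of these factors and of *Kit* were not taken without such members, so the part of those members was not tested.

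2 receptors named by the size of their ratios were *Gpr183* and *Cx3cr1*. *Gpr183*, the receptor for oxysterols, was at 76.9 in CBM and 15.2 in TBM, and 99.0 in CS and 15.8 in TS, with ratios of -2.34 (-3.11 to -1.63) in BM and -2.65 (-3.51 to -1.87) in spleen. *Cx3cr1*, the receptor for fractalkine, was at 71.6 in CBM and 13.7 in TBM, and 123 in CS and 26 in TS, with ratios of -2.39 (-3.20 to -1.65) and -2.24 (-2.91 to -1.61). Both genes were high in the control libraries and low in the tumor-bearing ones, with the intervals of all 4 ratios below -1. They reached the mean of 50 CPM for naming only through their levels in the control libraries. Their lower level with tumor was thus set in part by that filter and by the choice of the lowest ratios. Without members rich in other lineages the *Gpr183* ratio in BM was -1.36, and that of *Cx3cr1* was not taken. The receptors for interleukin 3 and related cytokines differed less. *Csf2rb*, their shared chain, was at 152 in CBM and 177 in TBM, and 213 in CS and 201 in TS, and *Il1rl1*, the receptor for interleukin 33, at 94.4 in CBM and 92.9 in TBM, and 119.9 in CS and 80.7 in TS. Of 13 counted growth factor and cytokine receptor genes, 0 passed 2-fold in TBM over CBM and 1 was lower in TS over CS. Of 18 IgE receptor signaling genes, 0 passed in TBM over CBM, and *Plcg2* was higher and *Fcer1a*, *Fcer1g*, *Lat2*, and *Lcp2* were lower in TS over CS. Shares over all 6111 genes were 1.49% higher and 2.45% lower in TBM over CBM, and 5.27% higher and 5.51% lower in TS over CS. Beside these shares, the counts of the 13 receptor genes are not read as a result.

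**Figure D4:**
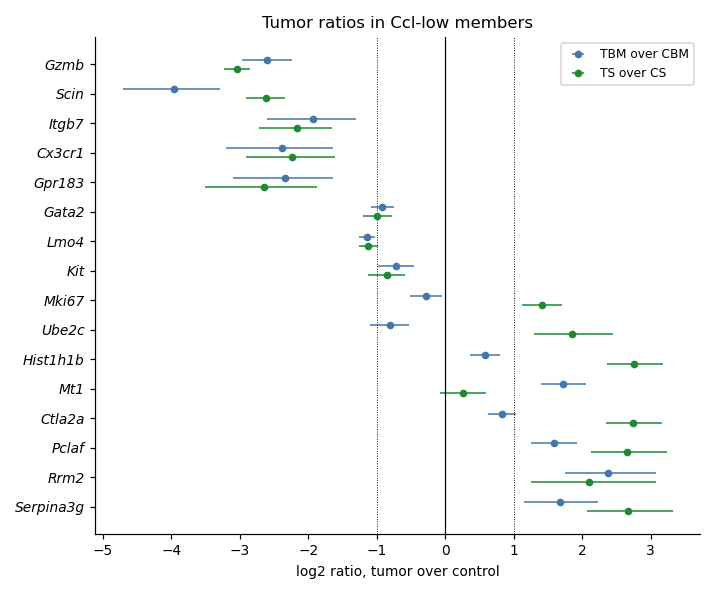
Log2 ratio of tumor-bearing over control in Ccl-low members for 16 genes, in BM (blue, TBM over CBM) and spleen (green, TS over CS), with exact conditional 95% intervals; dotted lines mark 2-fold. Gzmb, Scin, Itgb7, Cx3cr1, and Gpr183 lie below the lower line in both organs, while Mki67 and Ube2c lie on opposite sides of 0.

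A few genes of DNA replication were higher in the tumor-bearing libraries of both organs. *Rrm2*, a subunit of ribonucleotide reductase, was at 18.3 in CBM and 95.1 in TBM, and 18.1 in CS and 77.9 in TS, with ratios of 2.38 (1.74 to 3.08) in BM and 2.10 (1.25 to 3.07) in spleen, and the free RNA of barcodes with at most 100 UMIs held 119 in CBM and 153 in TBM, and 81.9 in CS and 99.0 in TS, more than the members of the same library. *Pclaf*, a partner of the sliding clamp, was at 76.1 in CBM and 228 in TBM, and 44.6 in CS and 282 in TS, with ratios of 1.58 (1.25 to 1.93) and 2.66 (2.13 to 3.23). *Serpina3g*, a protease inhibitor with near-identical neighbors among which reads may be split, was at 30.5 in CBM and 97.4 in TBM, and 34.9 in CS and 221 in TS, with ratios of 1.68 (1.16 to 2.23) and 2.66 (2.07 to 3.32). Of 20 S-phase genes, 3 were higher and 0 lower in each tumor ratio, *Rrm2* with *Cdc45* and *Ung* in BM and *Rrm2* with *Rrm1* and *Tyms* in spleen, and the medians were 0.44 in BM and 0.59 in spleen. Over all 6111 genes, 1.49% were higher in BM and 5.27% in spleen, so the same count stands against unlike shares.

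Genes of mitosis passed 2-fold mostly between the spleens. *Mki67*, a marker of cycling cells, was at 249.7 in CBM and 205 in TBM, and 167 in CS and 444 in TS, and *Top2a*, which untangles DNA, at 356 in CBM and 356 in TBM, and 155 in CS and 548 in TS. Both were lowest in CS and highest in TS. Of 19 genes of G2 and mitosis, 16 were higher and 0 lower in TS over CS (median 1.40), and 0 were higher and 1 lower in TBM over CBM (median -0.34, and 0.25 without members rich in other lineages). In CS over CBM, which shares CS with the spleen ratio, 0 were higher and 10 lower (median -1.08, and -0.34 without those members). Over all 6111 genes, 5.27% were higher in TS over CS, 2.45% lower in TBM over CBM, and 1.98% lower in CS over CBM. The CS levels rest on where the kinds were divided. A CS member of 61851 UMIs, with *Ccl3* plus *Ccl4* at 10.02 per 10000, fell just on the Ccl-high side. It held 70.8 per 10000 of mitosis genes, and a Ccl-high CS member of 25685 UMIs held 78.3. All 35 Ccl-low CS members held 717284 UMIs. No alternative moved the division, so its part in the mitosis ratios with CS was not tested. *Hist1h1b*, a linker histone with near-identical copies, was at 227 in CBM and 338 in TBM, and 79.5 in CS and 537 in TS. At 2000 UMIs per member, *Mki67* was found in 20.6% in CBM and 25.9% in TBM, and 11.4% in CS and 30.8% in TS (unthinned, 42.6%, 65.5%, 40%, and 69.2%), and these shares have intervals that overlap, from 3.20% to 26.7% in CS and from 18.7% to 45.1% in TS.

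The tumor ratios in spleen and in BM differed by more than 2-fold for 589 of the 6111 genes (9.64%) in Ccl-low members and for 896 of 6182 (14.5%) over all members. In Ccl-low members, *Ube2c*, a ubiquitin ligase partner of mitosis, was at 209 in CBM and 119 in TBM, and 43.2 in CS and 156 in TS, and *Kif11*, a spindle motor, at 91.4 in CBM and 58.6 in TBM, and 33.5 in CS and 133 in TS. The spleen ratio exceeded the BM ratio by 2.66 (2.04 to 3.28) for *Ube2c* and by 2.63 (1.88 to 3.38) for *Kif11* on the log2 scale. Their CS levels rest on the division of the kinds, as given for the mitosis genes above. On the other side, the difference for *Id2* was -3.61 (-4.57 to -2.65). *Ctla2a*, at 241 in CBM and 427 in TBM, and 79.5 in CS and 532 in TS, was higher with tumor in both organs, with ratios of 0.83 (0.63 to 1.03) in BM and 2.74 (2.35 to 3.16) in spleen.

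Spleen and BM were then compared within the Ccl-low members of control and of tumor-bearing mice. 266 genes passed 2-fold between CS and CBM (4.35%; 145 higher, 2.37%, and 121 lower, 1.98%, in CS), and 184 between TS and TBM (3.01%; 95 higher, 1.55%, and 89 lower, 1.46%, in TS). The same 24 genes were higher in both spleens, or 16.6% of the 145 and 25.3% of the 95, and 14 were lower in both, or 11.6% of the 121 and 15.7% of the 89. 7 of the 145 and 3 of the 121 took the opposite direction. The genes higher in both spleens included *Gzmb*, *Egr1*, *Cxcl2*, *Gadd45b*, *Tnf*, *Nfkbiz*, *Nfkbid*, *Icam1*, *Cd69*, *Scin*, and *Dusp5*, and those lower in both included *Prg2*, *Ly6c2*, and *S100a8*. *Cd69* was named after its values had been seen, and *Tnf* was counted only through CS, as given below.

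Immediate early genes, which cells transcribe within minutes of a stimulus, stood high in both spleens. *Egr1*, a zinc finger factor, was at 276 in CBM and 206 in TBM, and 1147 in CS and 903 in TS, with ratios of 2.05 (1.87 to 2.24) in control mice (CS over CBM) and 2.13 (1.93 to 2.33) in tumor-bearing mice (TS over TBM). The free RNA held 103 in CBM and 186 in TBM, and 170.0 in CS and 186 in TS, far below the spleen members. *Fos*, a subunit of AP-1, was at 552 in CBM and 497 in TBM, and 1301 in CS and 990.0 in TS, with ratios of 1.24 (1.10 to 1.38) in control mice (CS over CBM) and 0.99 (0.85 to 1.14) in tumor-bearing mice (TS over TBM). *Jun*, its partner, was at 419 in CBM and 365 in TBM, and 1260.3 in CS and 690.3 in TS, with ratios of 1.59 (1.44 to 1.75) in control mice (CS over CBM) and 0.92 (0.75 to 1.09) in tumor-bearing mice (TS over TBM). In each of the 3 genes both spleens lay above both BM libraries. Without members rich in other lineages, the *Egr1* ratio of TS over TBM was 1.07. Of 20 immediate early and stress genes, 9 were higher and 0 lower in CS over CBM (median 0.94), and 7 were higher and 0 lower in TS over TBM (median 0.90, and 0.43 without members rich in other lineages). With tumor, 1 was higher and 0 lower in BM (median -0.25, and 0.22 without those members), and 0 were higher and 4 lower in spleen (median -0.38). *Klf2*, the 1 higher in BM and among the 4 lower in spleen, was counted only through its level in CS. Over all 6111 genes, 2.37% were higher in CS over CBM and 1.55% in TS over TBM. The tumor ratios had 1.49% higher and 2.45% lower in BM, and 5.27% higher and 5.51% lower in spleen. Of 11 mast genes, 5 were higher and 0 lower in CS over CBM, *Gzmb* and *Itgb7* among them, and *Gzmb* alone passed in TS over TBM, with a ratio of 2.14 (1.76 to 2.53), or 1.35 without members rich in other lineages. *Cma1*, *Mcpt4*, and *Tpsb2*, also among the 5, were counted only through CS and came mostly from a single member there. The 2 spleens and the 2 BM samples each shared their tissue's handling, and its part in these values was not tested.

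Feedback genes of NF-kappaB, which NF-kappaB itself induces, were read in the same ratios. *Nfkbia*, the inhibitor that holds NF-kappaB in the cytoplasm, was at 339.5 in CBM and 363 in TBM, and 728 in CS and 680.1 in TS, with ratios of 1.10 (0.91 to 1.29) in control mice (CS over CBM) and 0.91 (0.74 to 1.07) in tumor-bearing mice (TS over TBM). *Nfkbiz*, a nuclear cofactor of NF-kappaB, was at 75.4 in CBM and 79.9 in TBM, and 166 in CS and 166 in TS, with ratios of 1.14 (0.74 to 1.54) in control mice (CS over CBM) and 1.06 (0.70 to 1.42) in tumor-bearing mice (TS over TBM). Both passed 2-fold in CS over CBM, and in TS over TBM *Nfkbiz* passed and *Nfkbia* did not. Without members rich in other lineages, the *Nfkbia* ratio of TS over TBM was 0.22. The free RNA held *Nfkbia* at 99.3 in CBM and 114 in TBM, and 233 in CS and 270.3 in TS, higher in the spleens too. Of 13 feedback genes, 7 were higher and 0 lower in CS over CBM (median 1.08), and 3 were higher and 0 lower in TS over TBM (median 0.81, and 0.38 without members rich in other lineages). In TS over CS 0 genes passed 2-fold in either direction (median -0.22), and in TBM over CBM 0 were higher and 1 lower. Over all 6111 genes, 2.37% were higher in CS over CBM, 1.55% higher in TS over TBM, and 2.45% lower in TBM over CBM. In TS over CS, 5.27% were higher and 5.51% lower. *Cxcl2*, a chemokine for neutrophils, was at 25.1 in CBM and 62.4 in TBM, and 209 in CS and 244 in TS, with ratios of 3.06 (2.51 to 3.65) in control mice (CS over CBM) and 1.97 (1.60 to 2.34) in tumor-bearing mice (TS over TBM). It came from 7, 16, 12, and 24 members. *Tnf*, the cytokine, was at 9.90 in CBM and 10.7 in TBM, and 61.3 in CS and 24.1 in TS, with ratios of 2.63 (1.71 to 3.65) in control mice (CS over CBM) and 1.18 (0.19 to 2.23) in tumor-bearing mice (TS over TBM). It had a UMI in 9, 10, 14, and 17 members of CBM, TBM, CS, and TS. Without CS, *Tnf* would not have reached the mean of 20 CPM, so its ratio of CS over CBM was set in part by that filter.

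**Figure D5:**
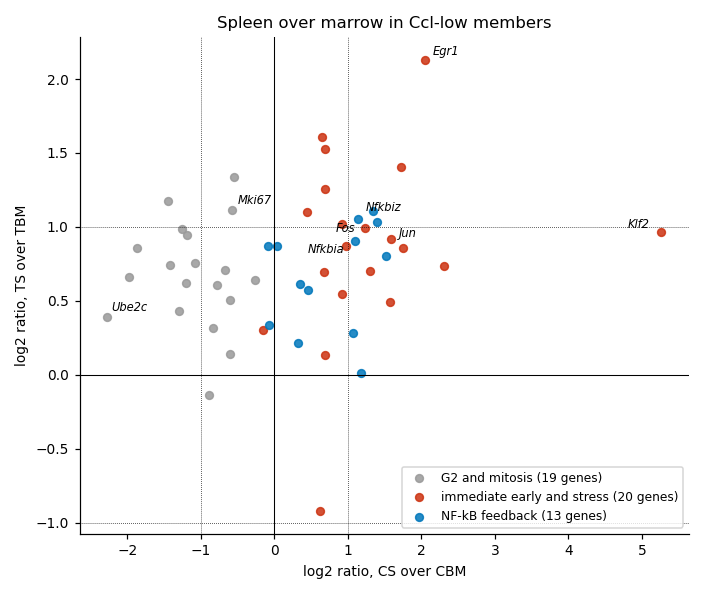
Log2 ratio of CS over CBM (horizontal) against TS over TBM (vertical) in Ccl-low members for genes of G2 and mitosis (gray), immediate early and stress genes (red), and NF-kappaB feedback genes (blue); dotted lines mark 2-fold. Most red and blue genes lie right of and above 0, and all 19 gray genes lie left of 0.

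Some of the largest ratios rested on few members. *Prg2*, the major basic protein of eosinophil granules, was at 101 in CBM and 2762 in TBM, and 0 in CS and 318 in TS, and 7 of 58 TBM members held 3986 of the 4040 UMIs of *Prg2*, *Epx*, and *Prg3*, 1 of 52 TS members held 413 of 423, and 1 of 68 CBM members held 192 of 197. *Cma1*, a chymase of mature mast cells, was at 29.7 in CBM and 0 in TBM, and 637 in CS and 0.928 in TS, and *Mcpt4* at 0 in CBM and 0 in TBM, and 259 in CS and 0 in TS; a single CS member held 755 of the 803 UMIs of *Tpsb2*, *Cma1*, and *Mcpt4*. *Cd74*, the invariant chain of antigen presentation, was at 3.81 in CBM and 0 in TBM, and 633 in CS and 2.78 in TS, and a single CS member held 991 of the 1049 UMIs of *Cd74*, *H2-Aa*, and *H2-Ab1*. Without the member with the most UMIs of *Cd74* in each library, its log2 ratio for TS over CS went from -7.83 to -4.29. The library ratios of these genes describe those members and not the kind.

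Markers of other blood cells were present at differing levels. The 12 genes of neutrophil precursors summed to 3536, 6478, 2578, and 2881 CPM in Ccl-low members of CBM, TBM, CS, and TS, at medians of 7.41, 35.3, 1.87, and 12.2 per 10000. Of the 5 counted genes 3 were higher and 0 lower in TBM over CBM and 0 were higher and 3 lower in TS over TBM. Over all 6111 genes, 1.49% were higher in TBM over CBM and 1.46% lower in TS over TBM. *Mpo*, the myeloperoxidase of granulocyte precursors, was at 1711 in CBM and 2463 in TBM, and 1103 in CS and 862 in TS, and the free RNA held it at 3071 in CBM and 2872 in TBM, and 549 in CS and 545 in TS. *Ms4a3*, a marker of granulocyte and monocyte progenitors, was at 218 in CBM and 628 in TBM, and 217 in CS and 473 in TS. *Elane*, neutrophil elastase, was at 629 in CBM and 1163 in TBM, and 498 in CS and 368 in TS. In Ccl-low members, the 12 erythroid genes summed to 442, 315, 651, and 405, the 9 megakaryocyte genes to 147, 227, 73.9, and 124, the 12 lymphoid genes to 459.8, 388, 413, and 424, and the 13 monocyte, macrophage, and dendritic cell genes to 197, 249.6, 1616, and 149. The part of other cells or of mixed droplets in the ratios was not tested.

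Metabolic lists were read in the same members. Of all 6111 genes, 1.49% were higher and 2.45% lower in TBM over CBM, and 5.27% higher and 5.51% lower in TS over CS. In lists this short, counts of 0, 1, or 2 genes are not read as results beside these shares. *Mt1*, a metallothionein that binds zinc and copper, was at 75.4 in CBM and 248 in TBM, and 167 in CS and 199 in TS, with a ratio of 1.72 (1.39 to 2.06) for TBM over CBM, and the free RNA held 230.4 in CBM and 435 in TBM, and 879 in CS and 1026 in TS. The members thus held less *Mt1* than the free RNA in all 4 libraries. Of 6 metallothionein and iron genes, 3 were higher and 0 lower in TBM over CBM (median 0.73), and 1 was higher and 1 lower in TS over CS (median 0.19). Of 14 glycolysis and hypoxia genes, 1 was higher in TBM over CBM (median 0.52), and 1 was higher and 1 lower in TS over CS (median 0.46). Of 7 cholesterol synthesis genes, 0 passed 2-fold in TBM over CBM and 1 was lower in TS over CS. Of 11 genes of MHC class I, 1 was lower in TBM over CBM and 2 were lower in TS over CS. Of 20 granule and amine genes, 1 was higher and 2 lower in TBM over CBM, and 0 were higher and 2 lower in TS over CS; *Srgn*, the proteoglycan core of the granules, was at 1763 in CBM and 2279 in TBM, and 1960.2 in CS and 1882 in TS.

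Within Ccl-high members, TBM and CS were each compared with CBM over 1589 genes with a mean of at least 100 CPM, and TS, with 2 members, was left out. 154 genes passed 2-fold between TBM and CBM (9.69%; 76 higher, 4.78%, and 78 lower, 4.91%, in TBM), and 24 between CS and CBM (1.51%; 17 higher, 1.07%, and 7 lower, 0.441%, in CS). Both ratios share CBM, and they rest on 100 CBM, 32 TBM, and 134 CS members. The sums give deep members more weight. In TBM, the 4 members with a *Kit* UMI held 47844, 20370, 14076, and 5509 of the 228429 UMIs. Their levels of *Ccl3* plus *Ccl4* were 16.9, 53.5, 12.1, and 16.3 per 10000. In CBM, the deepest member held 25748 of 471324 UMIs. In CS, 18 of 134 members had a *Kit* UMI, and the deepest of these held 61851, 31007, 27777, 25685, and 24284 of the 887067 UMIs. Their levels of *Ccl3* plus *Ccl4* were 10.0, 18.4, 24.5, 49.1, and 56.0 per 10000. An alternative without the 5% of members with the most UMIs left out the deepest members of each of these libraries. Over all alternatives run, the TBM over CBM ratio went from 1.48 to 4.28 for *Egr2* and from 1.43 to 3.09 for *Klf2*. It went from -3.69 to -1.62 for *Gpr183* and from -4.33 to -1.10 for *Cd7*. Other TBM over CBM ratios of Ccl-high members were not run. Neither the 4 TBM members with a *Kit* UMI nor those of CS were left out as a set. Of 9 cytokine and chemokine genes, 1 was lower and 0 higher in TBM over CBM (median -0.39). It was *Il6*, at 1067 in CBM and 455 in TBM, and 599 in CS, a log2 ratio of -1.23 (-1.55 to -0.92). *Ccl9*, a chemokine of myeloid cells, was at 2448 in CBM and 2294 in TBM, and 1951 in CS, and *Csf1* at 649 in CBM and 495 in TBM, and 708 in CS.

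Among genes of Ccl-high members higher in TBM, *Egr2*, an immediate early factor, was at 29.7 in CBM and 473 in TBM, and 96.9 in CS, with a ratio of 3.99 (3.18 to 4.91) for TBM over CBM, and had a UMI in 12 of 100 CBM and 26 of 32 TBM members. *S100a6*, a calcium-binding protein, was at 44.6 in CBM and 599.7 in TBM, and 6.76 in CS, with a ratio of 3.75 (3.08 to 4.49) for TBM over CBM. *Klf2*, a zinc finger factor of quiescence and migration, was at 36.1 in CBM and 197 in TBM, and 215 in CS, with a ratio of 2.45 (1.62 to 3.35) for TBM over CBM, and its ratio for CS over CBM was 2.58 (1.86 to 3.39). These 3 genes were low in CBM, and *S100a6* was low in CS as well. *Egr2* and *S100a6* lay above 100 CPM in TBM alone and were counted only through it, so their higher level in TBM was set in part by that filter. Among genes lower in TBM, *Gpr183*, the oxysterol receptor, was at 554 in CBM and 101 in TBM, and 409 in CS, with a ratio of -2.46 (-3.14 to -1.84) for TBM over CBM. *Il18r1*, the receptor for interleukin 18, was at 488 in CBM and 105 in TBM, and 375 in CS, with a ratio of -2.22 (-2.89 to -1.61) for TBM over CBM. *Cd7*, a surface protein of lymphoid and some myeloid cells, was at 641 in CBM and 140.1 in TBM, and 716 in CS, with a ratio of -2.19 (-2.77 to -1.67) for TBM over CBM. *Ptgs2*, the inducible prostaglandin synthase, was at 407 in CBM and 48.2 in TBM, and 285 in CS, with a ratio of -3.08 (-4.11 to -2.21) for TBM over CBM, and 2 TBM members held all of its UMIs there. *Gpr183* was thus lower in TBM in both kinds, while *Ptgs2* was lower in TBM in Ccl-high members and at 19.0 and 25.1 in Ccl-low members of CBM and TBM. Of 12 counted basophil genes, 0 were higher and 3 lower in TBM over CBM (median -0.59), against 4.78% higher and 4.91% lower over all 1589 genes.

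Between the control organs, Ccl-high members differed in few genes. The CS sums hold the deep members with a *Kit* UMI given above, and their part in these ratios was not tested. *Nfkbia*, the NF-kappaB inhibitor, was at 1477 in CBM and 1213 in TBM, and 2434 in CS, with a ratio of 0.72 (0.60 to 0.85) for CS over CBM. *Gzmb*, granzyme B, was at 65.8 in CBM and 65.7 in TBM, and 275 in CS, with a ratio of 2.06 (1.52 to 2.65) for CS over CBM, from 13, 2, and 23 members. It reached the mean of 100 CPM only through CS, so its higher level there was set in part by that filter. Of 19 immediate early and stress genes, 5 were higher and 0 lower in CS (median 0.47), and of 7 NF-kappaB feedback genes 0 passed 2-fold (median 0.45). Over all 1589 genes, 1.07% were higher and 0.441% lower in CS. *Elane*, *Ctsg*, *Mpo*, and *Prtn3*, granule genes of neutrophil precursors, were lower in CS, *Mpo* at 449.8 in CBM and 271 in TBM, and 66.5 in CS, where the free RNA of CS held 549 CPM of *Mpo* and that of CBM 3071. *Car1*, an erythroid carbonic anhydrase, was at 14.9 in CBM and 346 in TBM, and 272 in CS, with all 79 TBM UMIs in 1 member and with 1940 CPM in the free RNA of CS. *Cd74* was at 2.12 in CBM and 13.1 in TBM, and 1330.2 in CS, and 2 of 134 CS members held 2283 of the 2385 UMIs of *Cd74*, *H2-Aa*, and *H2-Ab1*.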

How the data were processed

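UMI counts from the 10x 3' v3.1 protocol were read from the matrices as deposited by the authors, made with Cell Ranger 4.0 on mm10 per the labels and listing all 6794880 barcodes before cell calling, ambient RNA removal, and the authors' lower gene limit. In these unfiltered matrices, 7166 to 13053 barcodes per library reached that gene limit, which the authors applied to filtered matrices. Reads are not analysed here. Members were barcodes with at least 1000 genes, at most 10% mt- UMIs, at least 1 UMI of *Ms4a2*, at least 3 UMIs of *Cpa3*, and under 10 UMIs of *Mcpt8* plus *Prss34* per 10000. The members and gene lists were chosen with earlier results of these data known, and the kinds and 4 of the alternatives were added after the values had been seen. Members of a library summed to 1084996 to 1784850 UMIs, and library totals ranged from 101811035 to 176094297.

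UMIs were summed over members and scaled to counts per 1000000 of all their UMIs (CPM). Levels carry exact 95% Poisson intervals, shares exact binomial (Clopper-Pearson) intervals, and ratios exact conditional intervals; a library at 0 entered a ratio with 3 UMIs as a bound. Genes counted had a mean of 20 CPM over 4 libraries (100 over 3 for Ccl-high members), and a log2 ratio of 1 in size was past 2-fold. Because each group was 1 library, no test was made. Named genes were those of the lists, the 8 highest and 8 lowest of each ratio at a mean of 50 CPM, the 5 highest and 5 lowest of the difference of tumor ratios, and the 8 highest and 8 lowest against like barcodes, without the selecting genes and ribosomal, mitochondrial, hemoglobin, immunoglobulin, and T cell receptor genes; exceptions are stated, and 1 gene and the list that rested on it are not reported here. Free RNA was read from barcodes with at most 100 UMIs. Hemoglobin-rich barcodes held 500 or more hemoglobin UMIs per 10000. No doublet caller was run, and the 5% of members with the most UMIs were left out as an alternative. Gene positions come from GENCODE annotation of GRCm38 and promoters from RefSeq, where 4 of the genes were matched. Analyses used Python 3.11.15, NumPy 2.4.6, SciPy 1.17.1, pandas 2.3.3, and matplotlib 3.10.9.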

Additional observations from a re-analysis of the deposited data

Results flagged for a closer look

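8 genes were past 2-fold in opposite directions with tumor in BM and spleen within Ccl-low members, and the 4 of them that were named or on a list and had both intervals apart from 0 are given here; the difference was not tested, since each group was 1 library. *Klf2*, a zinc finger factor, was at 1.52 in CBM and 7.61 in TBM, and 58.6 in CS and 14.8 in TS, a log2 ratio of 2.32 (0.09 to 5.55) in BM and -1.98 (-2.91 to -1.12) in spleen, and the BM values rest on 2 and 10 UMIs. *Irf8*, a factor of monocytes and dendritic cells, was at 6.09 in CBM and 15.2 in TBM, and 89.2 in CS and 2.78 in TS, with ratios of 1.32 (0.08 to 2.71) in BM and -5.00 (-7.32 to -3.39) in spleen, and 1 CS member held 56 of the 64 UMIs there. Without the top member of each library, the *Irf8* ratios were 0.51 and -2.59. *Klf2* and *Irf8* reached the mean of 20 CPM only through CS, so their lower level in TS over CS was set by that filter. Their opposite directions are therefore no finding. *Cyp11a1*, the steroid-forming enzyme, was at 39.6 in CBM and 92.1 in TBM, and 119 in CS and 47.3 in TS, with ratios of 1.22 (0.74 to 1.72) in BM and -1.32 (-1.85 to -0.81) in spleen, from 16, 28, 20, and 14 members. *Hmmr*, a spindle protein, was at 89.8 in CBM and 44.9 in TBM, and 37.6 in CS and 89.1 in TS, with ratios of -1.0 (-1.48 to -0.54) in BM and 1.24 (0.61 to 1.92) in spleen, from 13, 21, 7, and 26 members. *Hmmr* is on the mitosis list, and its CS level rests on the division of the kinds, as given above.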

How the results depend on the processing

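No paired analysis was possible because each group was 1 library and no result came from a test. The 23 gene ratios that carry the text kept their sign in every alternative run for them, but of 319 values 36, from 18 of the ratios, moved by over 1.5 times, 9 of them without members rich in other lineages and 9 with the higher *Cpa3* and *Ms4a2* minimum; *Nfkbia* in CS over CBM no longer passed 2-fold at 0.85 with that minimum. Medians changed sign in at least 1 of 15 alternatives for the genes of G2 and mitosis, the immediate early genes, and the NF-kappaB feedback genes in TBM over CBM and for the mast genes in TS over TBM, while the other medians of these 4 lists in Ccl-low members kept theirs. The counts of genes past 2-fold depended on depth and on the filter; fewer or shallower members give noisier levels. With a minimum of 10 *Cpa3* and 2 *Ms4a2* UMIs, members numbered 30 in CBM and 33 in TBM, and 25 in CS and 18 in TS; with a *Kit* UMI required, 69 in CBM, 52 in TBM, and 52 in CS; with 2000 genes, 87 in CBM and 98 in CS; and without members rich in other lineages, 50 in TBM. The alternatives do not count the same number of genes, so the numbers that follow are counts and not shares. Over all members, genes past 2-fold between TBM and CBM numbered 44 at a mean of 100 CPM, 1566 with no filter, 630 with the higher *Cpa3* and *Ms4a2* minimum, 467 by the mean over members (225 higher and 242 lower), and 944 after thinning to 3000 UMIs. In Ccl-high members they were 154 of 1589 (9.69%), a higher share than the 255 of 6182 (4.12%) over all members. For TS over CS they were 390, 3379 with no filter, 792 with *Kit* required, 2434 thinned, and 659 in Ccl-low members. For CS over CBM they were 48, 1557 with no filter, 767 with the higher minimum, 439 with 2000 genes, 379 without the 5% of members with the most UMIs, and 535 thinned. In Ccl-high members they were 24 of 1589 (1.51%), against 249 of 6182 (4.03%) over all members. For TS over TBM they were 74, 1433 with no filter, 191 with *Kit* required, 740 by the mean over members, 1423 thinned, 735 without other lineages, and 184 in Ccl-low members. For the difference of the tumor ratios they were 168, 2609 with no filter, 1363 with the higher minimum, 1397 by the mean, 2078 thinned, 1561 without other lineages, and 589 in Ccl-low members. Within Ccl-low members, the mean of 100 CPM, no filter, the higher minimum, and thinning gave 27, 1518, 619, and 1202 genes in TBM over CBM, 104, 2165, 1457, and 1850 in TS over CS, 34, 1553, 880, and 1349 in CS over CBM, 23, 1297, 422, and 1201 in TS over TBM, and 59, 2158, 1403, and 2087 in the difference; without members rich in other lineages, 397, 460, and 1033 genes passed for TBM over CBM, TS over TBM, and the difference. Otherwise the counts stayed within 1.5 times the reported value, and beyond the construction of each alternative the cause was not tested.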

Other observations

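Further lists were read in Ccl-low members, where 1.49% of all 6111 genes were higher and 2.45% lower in TBM over CBM. In TS over CS the shares of all genes were 5.27% higher and 5.51% lower. Of 14 adhesion and homing genes, *Itga4*, the partner chain of *Itgb7*, and *Itgb7* were lower in TBM over CBM and in TS over CS, where *Cd52* was lower and *Itga2b* higher as well; *Itga4* was at 560.3 in CBM and 237 in TBM, and 816 in CS and 349.8 in TS, with ratios of -1.24 (-1.43 to -1.05) in BM and -1.22 (-1.41 to -1.03) in spleen. Of 9 genes of the ATF4 and unfolded protein responses, 0 passed 2-fold in TBM over CBM, and 3 were higher and 2 lower in TS over CS. The 3 higher were *Psat1*, *Phgdh*, and *Shmt2*, enzymes of serine and one-carbon metabolism, with *Shmt2* at 45.7 in CBM and 64.7 in TBM, and 29.3 in CS and 78.9 in TS and a ratio of 1.43 (0.73 to 2.19). Of 9 cytokine and chemokine genes, 2 were higher and 1 lower in TBM over CBM, and 0 were higher and 2 lower in TS over CS. *Il6* was lower in both ratios, at 32.0 in CBM and 11.4 in TBM, and 48.8 in CS and 8.35 in TS, with ratios of -1.49 (-2.44 to -0.61) and -2.55 (-3.79 to -1.46). The other gene lower in TS over CS was *Tnf*. Without CS, neither *Il6* nor *Tnf* would have reached the mean of 20 CPM. Their lower level in TS over CS was thus set in part by that filter, and their count there is no finding. *Ccl6*, among the genes higher in TBM over CBM, was at 4.57 in CBM and 109.6 in TBM, and 2.79 in CS and 1.86 in TS, from 6, 10, 2, and 2 members. It was counted only through TBM, so its higher level there was set in part by the same filter. Of 7 genes of cell survival and death, *Bcl2l11*, a promoter of apoptosis, was higher in TS over CS, with a ratio of 1.51 (0.54 to 2.60), and 0 passed 2-fold in TBM over CBM. Of 6 counted stem cell genes, 0 passed 2-fold in either tumor ratio, with medians of -0.21 in BM and 0.27 in spleen; *Cd34* was at 142 in CBM and 213 in TBM, and 141 in CS and 231 in TS and *Muc13* at 114 in CBM and 151 in TBM, and 158 in CS and 164 in TS.

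Of 5 eicosanoid genes, *Ptgs2* was higher in TS over CS and in TS over TBM, at 19.0 in CBM and 25.1 in TBM, and 25.1 in CS and 90.9 in TS, and 0 genes passed in TBM over CBM or CS over CBM. The 2 Ccl-high members of TS held *Cd200r3* and lacked *Kit*, and they entered no comparison. Neither *Kit* nor *Cd200r3* had a UMI in 2, 3, 6, and 0 Ccl-high and in 4, 4, 1, and 4 Ccl-low members of CBM, TBM, CS, and TS, and both had one in 5, 2, 14, and 0 and in 5, 8, 2, and 6.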
